A study of Mus musculus with 8 samples.

Results

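The genes described here encode 10 integrin subunits, the α subunits *Itga2*, *Itga3*, *Itga5*, *Itga6* and *Itgav* and the β subunits *Itgb1*, *Itgb4*, *Itgb5*, *Itgb6* and *Itgb8*. They were selected by gene symbol from a table of 53465 genes, and all 10 were among the 14301 genes that passed a filter on low counts and were tested. Integrins are cell-surface receptors in which an α and a β subunit pair, bind the extracellular matrix and connect it to the actin cytoskeleton. The β1 partners α2, α3 or α6, and α5 make receptors for collagen, laminin and fibronectin respectively, whereas α6β4 anchors epithelial cells to laminin in hemidesmosomes. Receptors built on αv recognize the RGD motif of fibronectin and vitronectin, and αvβ6 and αvβ8 also bind the latent form of TGFβ and can release the active cytokine.

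RNA was sequenced from 2 mouse pancreatic ductal adenocarcinoma (PDAC) lines, KCS-B73 and KCS-B87, grown from primary tumors. In the study's KC-shSmad4 model, Ptf1a-Cre (which acts in the pancreatic epithelium) switches on Rosa26 LSL-rtTA3-IRES-mKate2, and a doxycycline (Dox)-inducible, GFP-linked short hairpin RNA against *Smad4* sits in a cassette at *Col1a1*; every library carries these alleles, so there is no line without the hairpin here. With Dox, *Smad4* was silenced (Smad4 off), and 5 days without Dox restored it (Smad4 on). SMAD4 is the partner that receptor-activated SMAD2 and SMAD3 bind to act on TGFβ target genes. Cells in either state were then treated for 24 h with 100 pM TGFβ1 or with 2.5 µM SB505124, an inhibitor of the type I TGFβ receptor. This gave 4 groups of 2 libraries, 1 from each line, grown on collagen-coated plates. Every library received either TGFβ1 or SB505124, with no untreated arm. All changes with TGFβ1 below are against SB505124, and a rise with the ligand and a fall with the inhibitor cannot be told apart. The labels do not say which hairpin each line carries or whether the lines came from separate mice, and each line is a single culture series, so p-values measure only the spread among these 8 libraries.

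Library totals ranged from 18389235 to 23440550 counts, and the 10 genes together took between 0.221% and 0.452% of them. Levels are given as CPM, a gene's counts divided by its library's TMM-scaled total, in which 3 counts correspond to 0.125–0.162 CPM. *Smad4* itself was at 33.7 and 34.7 CPM in the Smad4-off libraries of KCS-B73 and at 34.9 and 35.5 CPM in those of KCS-B87, against 97.4 and 117 CPM and 114 and 116 CPM with Smad4 on, so the ranges did not overlap and the labels held in all 8 libraries. The summed level of 8 epithelial markers was 3900–6200 CPM in KCS-B73 and 1170–2080 CPM in KCS-B87, and every marker had more than 3 counts in at least 1 library. Of 8 fibroblast markers, *Dcn*, *Lum* and *Thy1* had at most 3 counts everywhere. The sum was 5.84–40.5 CPM in KCS-B73 and 51.6–668 CPM in KCS-B87, which includes *Col1a1*. In the edgeR test between the lines described below, 3 of 5 tested were higher in KCS-B87 and 1 was lower (adjusted p below 0.05), against 8.92% and 9.68% of all genes. *Col1a1*, whose locus carries the hairpin cassette, was higher by a log2 fold change of 6.75, whereas *Col1a2* was 16.3-fold lower (adjusted p = 0.00170). In these bulk samples, fewer cells of a type and less RNA per cell cannot be told apart. Leukocyte markers summed to at most 6.49 CPM with *Ptprc* at no more than 3 counts, endothelial markers to at most 26.1 CPM and acinar markers to at most 1.37 CPM.

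To compare subunits with each other, CPM were divided by the length of each gene's merged exons in kilobases. On this scale *Itgb1* had the highest level, at 354 ± 169 CPM per kilobase (mean ± SD over the 8 libraries, as for the values that follow). *Itga3* came next at 112 ± 21.3 and was below *Itgb1* in all 8 libraries. *Itgb5* (35.3 ± 19.2), *Itga6* (30.4 ± 6.14), *Itgav* (26.5 ± 14.1), *Itga5* (25.9 ± 25.5), *Itga2* (21.6 ± 20.1) and *Itgb4* (16.1 ± 16.1) formed a middle group in which each neighbor's range overlapped the next, so their order was not set beyond the spread. *Itgb6* (0.417 ± 0.528) and *Itgb8* (0.264 ± 0.188) were far lower, below *Itgb4* in all 8 libraries, and overlapped each other. No other β subunit exceeded *Itgb7* and *Itgb2* (4.33 ± 6.83 and 2.68 ± 2.68), and no other α subunit exceeded *Itga7* (1.56 ± 0.609).

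Shares of each subunit in these totals are a description, with no test. *Itga3* supplied 66.8% and 59.8% of the summed α CPM per kilobase in Smad4-off cells under SB505124 (KCS-B73 and KCS-B87, in this order here) and 38.8% and 29.9% in Smad4-on cells under TGFβ1. *Itga5* supplied 4.42% and 5.62% in the former and 18.6% and 27.8% in the latter, which made it the third most abundant α subunit in KCS-B73 and the next after *Itga3* in KCS-B87. *Itgb1* held 74.1–90.9% of the β CPM per kilobase in the 8 libraries. *Itgb4* held 14.9% in Smad4-on KCS-B73 cells under SB505124 but no more than 2.45% in any KCS-B87 library. Together the 5 α and 5 β genes accounted for 96.8–99.3% of α and 89.4–99.4% of β CPM per kilobase. The β remainder was largest in Smad4-off KCS-B73 cells under SB505124, where *Itgb7* was at 1053 counts, and the α remainder in the same condition of KCS-B87.

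**Figure D1:**
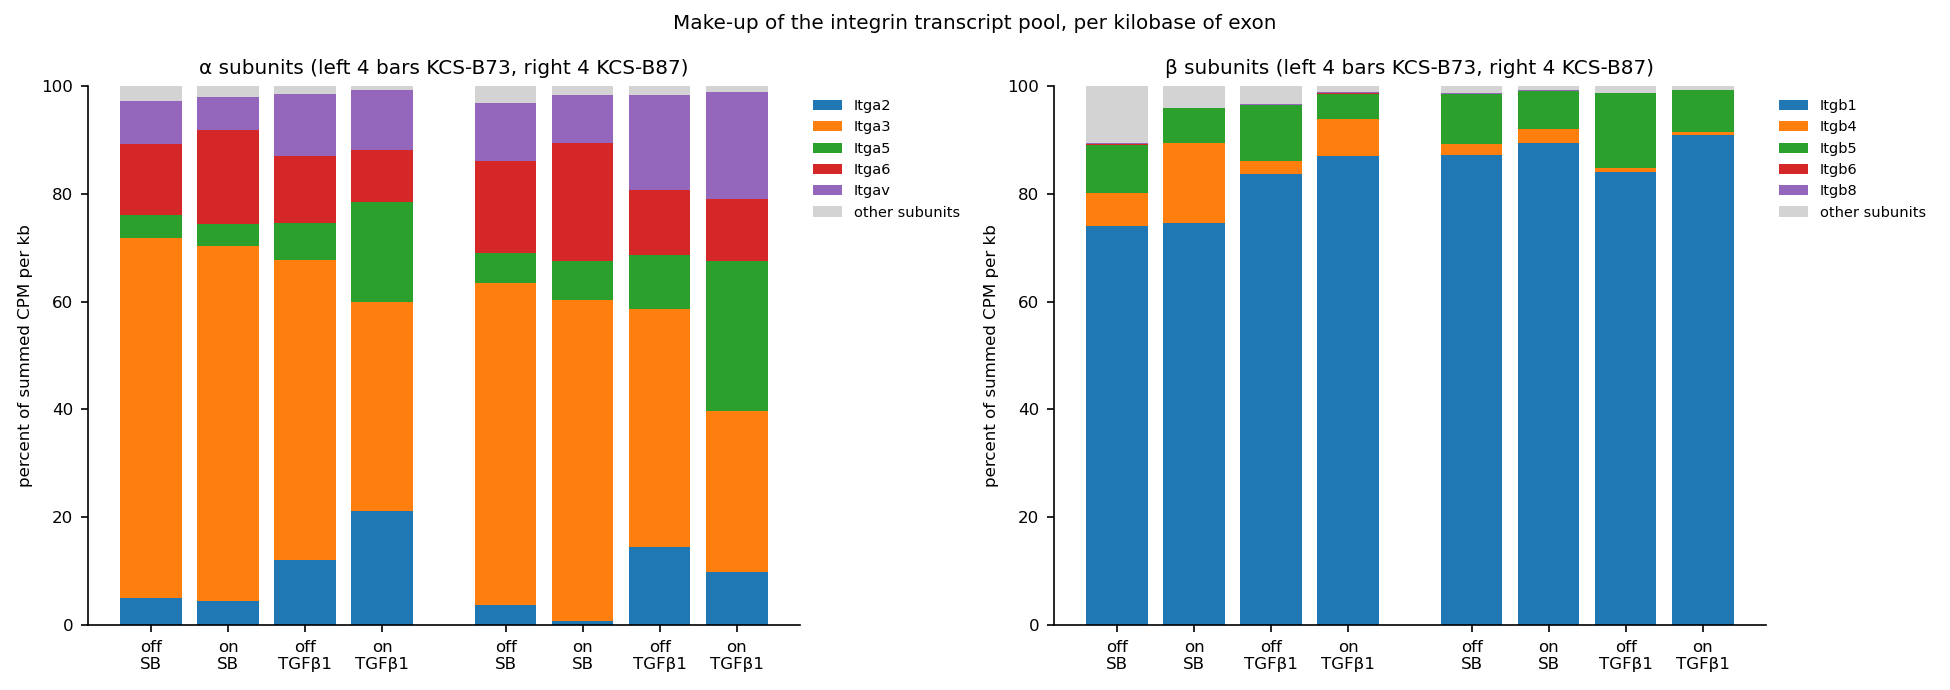
Share of each integrin subunit in the summed CPM per kilobase of all α subunits (left) and all β subunits (right), in percent, in the 4 conditions of KCS-B73 (left bars) and KCS-B87 (right bars). *Itga3* made up 66.8% and 59.8% of the α total with Smad4 off under SB505124 and 38.8% and 29.9% with Smad4 on under TGFβ1, and *Itgb1* made up 74.1–90.9% of the β total.

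The comparisons ask how the integrin genes responded to TGFβ1 with and without *Smad4*, and to *Smad4* with and without TGFβ signaling. A gene passed when its Benjamini-Hochberg adjusted p was below 0.05 in edgeR's quasi-likelihood test with the line in the model, and was called when it also changed over 2-fold. TGFβ1 against SB505124 in Smad4-on cells moved 8 of 10 members past the threshold, 6 higher and 2 lower, against 33.2% of all genes tested (15.6% higher and 17.6% lower). All 6 that rose were called, against 13.9% of all genes (5.62% higher and 8.31% lower). In Smad4-off cells 4 of 10 passed, all higher, against 13.2% of all genes (6.96% higher and 6.24% lower), and *Itgb5* alone was called, against 5.93% (3.11% higher and 2.82% lower). Restoring *Smad4* under TGFβ1 raised 2 of 10, against 6.8% of all genes passing (3.52% higher and 3.28% lower), and *Itga5* was called, against 3.12% (1.31% higher). Restoring it under SB505124 raised 1 of 10 and called none, against 1.59% of all genes passing (0.972% higher and 0.622% lower) and 1.09% called. The median log2 fold changes of the 10 genes were 1.16, 0.90, 0.48 and 0.09 in the same order, beside medians of −0.02, −0.02, −0.01 and 0.00 over all genes tested. These comparisons share libraries with one another and are given side by side. The members and the lists below were chosen with earlier results of these data known. The shares of all genes are therefore given for scale, and enrichment of these sets was not tested. Without the line in the model edgeR passed 4, 0, 0 and 0 members (4, 3 and 1 had an unadjusted p under 0.05 in the last 3), and DESeq2 passed 7, 4, 2 and 1.

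**Figure D2:**
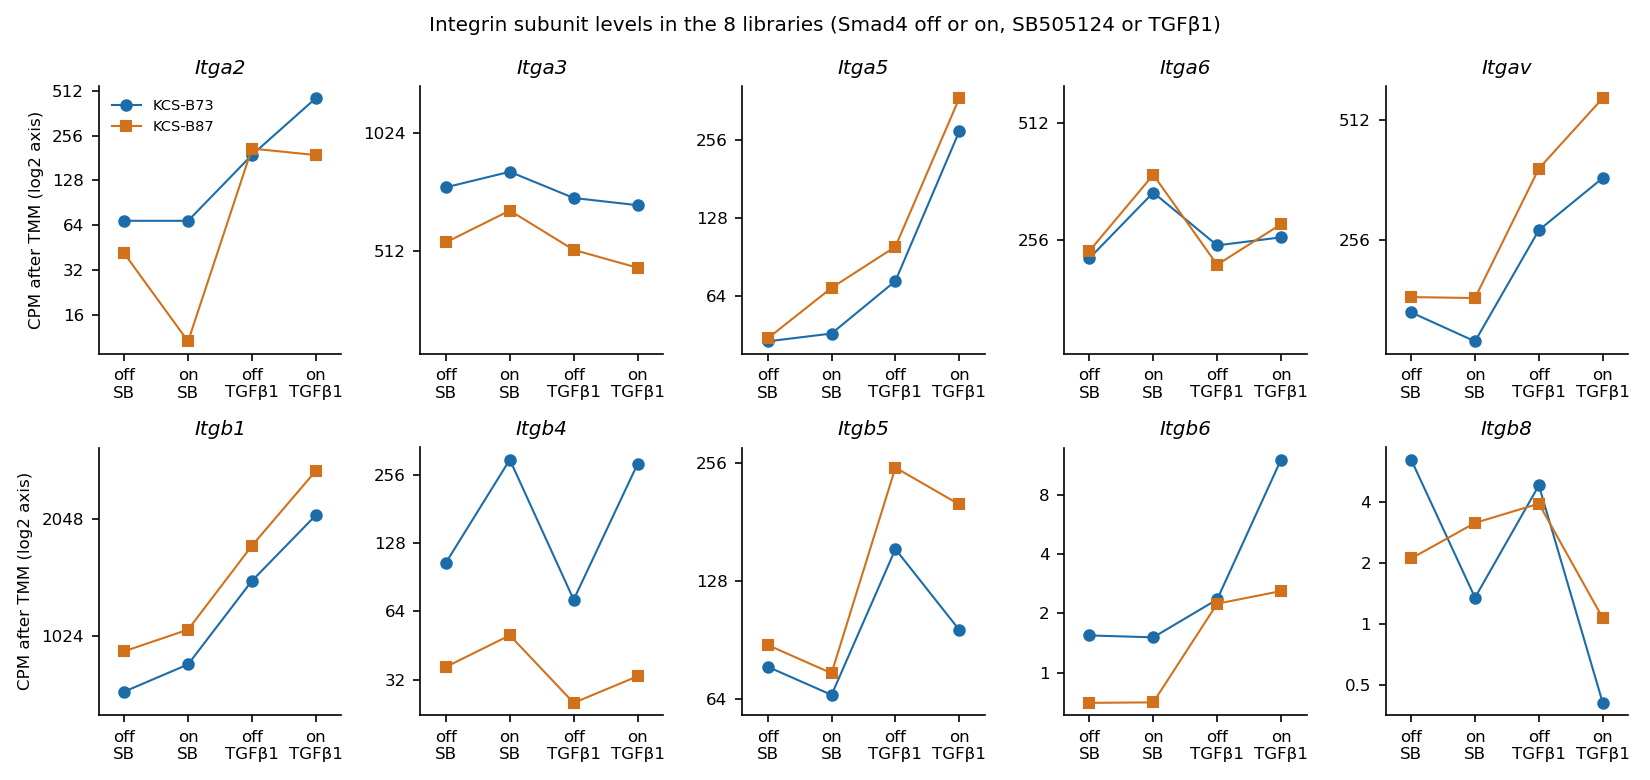
Level of each of the 10 integrin genes in every library, as CPM after TMM scaling on a log2 axis, for Smad4 off or on and SB505124 (SB) or TGFβ1; circles are KCS-B73 and squares KCS-B87, joined by lines only to guide the eye. *Itga5* was at 42.6–68.6 CPM under SB505124, 72.9 and 99.1 CPM with Smad4 off under TGFβ1, and 277 and 373 CPM with Smad4 on under TGFβ1.

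The genes of the fibronectin receptor α5β1 and of the αv chain rose together under TGFβ1. Their promoter windows are printed because *Itga5*, *Itgb1* and *Itgav* had the 3 highest correlations among the 10 genes across the libraries, given further on. Each runs from 250 bases before to 30 bases after the RefSeq start site on GRCm38.p6, read along the gene: *Itga5* from chr15:103366762-103367041 (minus strand), *Itgb1* from chr8:128685404-128685683 (plus strand) and *Itgav* from chr2:83724147-83724426 (plus strand). Capitals mark the SMAD box core CAGAC and the GC box GGGCGG, searched on both strands, so that matches on the other strand appear as GTCTG and CCGCCC.
Itga5: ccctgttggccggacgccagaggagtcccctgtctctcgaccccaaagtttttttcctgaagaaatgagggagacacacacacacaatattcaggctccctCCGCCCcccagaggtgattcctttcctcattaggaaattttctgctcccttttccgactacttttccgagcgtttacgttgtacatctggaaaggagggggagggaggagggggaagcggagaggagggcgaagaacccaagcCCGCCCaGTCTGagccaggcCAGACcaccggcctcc
Itgb1: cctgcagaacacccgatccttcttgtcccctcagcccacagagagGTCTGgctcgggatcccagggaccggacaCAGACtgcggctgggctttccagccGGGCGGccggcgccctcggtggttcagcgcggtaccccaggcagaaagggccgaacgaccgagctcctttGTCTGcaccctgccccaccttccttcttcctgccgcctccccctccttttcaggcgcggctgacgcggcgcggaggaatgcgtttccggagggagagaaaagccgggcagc
Itgav: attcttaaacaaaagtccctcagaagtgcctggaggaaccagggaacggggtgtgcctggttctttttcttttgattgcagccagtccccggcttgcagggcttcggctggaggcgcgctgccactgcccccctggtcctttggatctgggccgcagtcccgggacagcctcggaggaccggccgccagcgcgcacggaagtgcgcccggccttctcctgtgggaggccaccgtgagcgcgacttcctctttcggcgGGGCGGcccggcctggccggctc
The *Itga5* window held 2 CAGAC matches, whose first bases lay at +2 and +15 counted from the start site, and 2 GC boxes at −149 and −6. In the *Itgb1* window there were 3 CAGAC matches, at −205, −176 and −81, and a GC box at −151. *Itgav* had a GC box at +8 and no CAGAC in this window. Of 32817 RefSeq promoter windows (250 bases before to 50 after the start site), 49.6% held CAGAC and 35.6% held GGGCGG, so either motif alone is common. The AP-1 motif TGACTCA or its complement TGAGTCA was in 5.2% of them and in none of the 10 windows listed for 8 of the members. A match is a run of letters and no measure of binding.

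*Itga5* (chr15:103344286-103366763 on GRCm38), the α chain of the classical fibronectin receptor, passed in 3 of these 4 comparisons. In KCS-B73 its levels were 42.6 and 45.7 CPM under SB505124 with Smad4 off and on, and 72.9 and 277 CPM under TGFβ1. The KCS-B87 values in the same order were 43.7, 68.6, 99.1 and 373 CPM. Both Smad4-on TGFβ1 libraries thus lay above the other 6, and both Smad4-off TGFβ1 libraries lay above the 4 SB505124 libraries. TGFβ1 raised *Itga5* 5.72-fold in Smad4-on cells (log2 fold change 2.52 ± 0.13 (SE), adjusted p = 8.71e-05) and 1.96-fold in Smad4-off cells (0.97 ± 0.13, adjusted p = 0.00538). *Smad4* raised it 3.78-fold under TGFβ1 (1.92 ± 0.13, adjusted p = 0.00122), by 1.93 in KCS-B73 and 1.91 in KCS-B87. Under SB505124 the change with *Smad4* was 0.38 ± 0.13 and did not pass (adjusted p = 0.295).

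*Itgb1* (chr8:128685654-128733200), the shared β chain of the collagen, laminin and α5 receptors, showed a smaller change from a higher level. Under SB505124 it was at 739 and 868 CPM in KCS-B73 and at 938 and 1065 CPM in KCS-B87, with Smad4 off and on. Under TGFβ1 these became 1420 and 2090 CPM in KCS-B73 and 1747 and 2715 CPM in KCS-B87. Within each line both TGFβ1 levels lay above both SB505124 levels, and under either treatment the Smad4-on level was the higher. The rise with TGFβ1 was 2.48-fold in Smad4-on cells (1.31 ± 0.08, adjusted p = 0.000119) and 1.89-fold in Smad4-off cells (0.92 ± 0.08, adjusted p = 0.00133). *Smad4* raised *Itgb1* 1.51-fold under TGFβ1 (0.60 ± 0.08, adjusted p = 0.00931), by 0.56 in KCS-B73 and 0.64 in KCS-B87. This change with *Smad4* no longer passed without the Smad4-off TGFβ1 library of KCS-B73 (0.62) or of KCS-B87 (0.57).

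*Itgav* (chr2:83724397-83806916), the α chain of the RGD receptors, was at 168 and 142 CPM in KCS-B73 and 184 and 183 CPM in KCS-B87 under SB505124, Smad4 off before Smad4 on. TGFβ1 brought it to 271 and 367 CPM in KCS-B73 and to 387 and 582 CPM in KCS-B87, so that no TGFβ1 library overlapped an SB505124 library. The increase was 2.88-fold in Smad4-on cells (1.53 ± 0.13, adjusted p = 0.000345) and 1.84-fold in Smad4-off cells (0.88 ± 0.13, adjusted p = 0.00738). In the Smad4-off comparison it no longer passed without the KCS-B87 TGFβ1 library (0.83). *Smad4* on against off under TGFβ1 gave 0.52 ± 0.13 and did not pass (adjusted p = 0.0609), although it passed without either Smad4-off SB505124 library (adjusted p = 0.0369 and 0.0365). An antisense RNA, *Gm13684*, overlaps 5.9% of the *Itgav* exon bases and had at most 18 counts in any library.

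The β partners of αv followed different patterns. *Itgb5* (chr16:33829665-33949153), whose product pairs with αv to bind vitronectin, was at 65.4–87.7 CPM in the 4 SB505124 libraries. With TGFβ1 it reached 154 CPM in Smad4-off and 95.9 CPM in Smad4-on cells of KCS-B73, and 250 and 201 CPM in those of KCS-B87. All 4 TGFβ1 libraries lay above all SB505124 libraries, and within each line the Smad4-off level was the higher. TGFβ1 raised *Itgb5* 2.38-fold in Smad4-off cells (1.25 ± 0.21, adjusted p = 0.0124) and 2.02-fold in Smad4-on cells (1.01 ± 0.21, adjusted p = 0.0120). The Smad4-on rise was 0.55 in KCS-B73 and 1.43 in KCS-B87, and it did not pass without the KCS-B87 SB505124 library (adjusted p = 0.101). The Smad4-off call was lost without the TGFβ1 library of KCS-B73 (adjusted p = 0.0532) or of KCS-B87 (0.0923), or without the SB505124 library of KCS-B87 (0.0849). The difference with *Smad4* under TGFβ1 was −0.48 ± 0.21 (adjusted p = 0.227). Up to 6.48% of the 75-base stretches of *Itgb5* also occur in *Gm38317*, so reads there could be shared.

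*Itgb6* (chr2:60598292-60722643), the β chain of the epithelial latent-TGFβ receptor αvβ6, was a low-abundance transcript. It had 31 and 28 counts in KCS-B73 and 16 and 17 counts in KCS-B87 under SB505124. Under TGFβ1 it had 55 counts in Smad4-off and 237 in Smad4-on cells of KCS-B73, and 45 and 51 counts in KCS-B87. The highest level, 12.1 CPM, was in the Smad4-on TGFβ1 library of KCS-B73, and its counterpart in KCS-B87 was at 2.6 CPM. In Smad4-on cells TGFβ1 raised *Itgb6* 5.90-fold (2.56 ± 0.50, adjusted p = 0.00863), with 2.92 in KCS-B73 and 1.75 in KCS-B87. That call was lost without either Smad4-on KCS-B73 library, with values of 1.64 (adjusted p = 0.0544) without the TGFβ1 library and 2.50 (adjusted p = 0.0681) without the SB505124 library, and the value was 3.17 without the Smad4-on TGFβ1 library of KCS-B87. *Smad4* on against off under TGFβ1 gave 1.38 ± 0.47 (adjusted p = 0.135), made up of 2.31 in KCS-B73 and 0.21 in KCS-B87.

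*Itgb8* (chr12:119158022-119238802), whose product also pairs with αv to bind latent TGFβ, was the least abundant member and passed in none of the comparisons by edgeR with the line in the model and the filter on low counts. Its counts in KCS-B73 were 130 and 25 under SB505124 and 113 and 8 under TGFβ1, Smad4 off before Smad4 on. KCS-B87 had 48, 76, 79 and 21 counts in the same order. The 2 Smad4-on TGFβ1 libraries were at 0.408 and 1.07 CPM, below the other 6. The change with *Smad4* under TGFβ1 was −2.55 ± 0.73, with −3.29 in KCS-B73 and −1.79 in KCS-B87, and its adjusted p was 0.0893. It passed without either Smad4-off SB505124 library (adjusted p = 0.0307 and 0.0298), and DESeq2 gave an adjusted p of 0.0108 with the line and 0.0410 without it.

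Among the collagen and laminin receptors, *Itga2* (chr13:114833081-114932100), the α chain of the collagen receptor α2β1, had the widest range of the 10 genes, 42.6-fold between its lowest and highest library. In KCS-B73 it was at 68.7 CPM in both SB505124 libraries and at 190 and 456 CPM with TGFβ1, Smad4 off before Smad4 on. In KCS-B87 the SB505124 libraries had 41.5 and 10.7 CPM and the TGFβ1 libraries 209 and 189 CPM. TGFβ1 libraries lay above SB505124 libraries without overlap, whereas the order of the *Smad4* states under TGFβ1 differed between the lines. TGFβ1 raised *Itga2* 9.19-fold in Smad4-on cells (3.20 ± 0.57, adjusted p = 0.00618). This value was 4.51 without the Smad4-on SB505124 library of KCS-B73 and 2.43 without that of KCS-B87. In Smad4-off cells the change was 2.01 ± 0.55 and did not pass (adjusted p = 0.0563), and it passed without the Smad4-off TGFβ1 library of KCS-B73 (adjusted p = 0.0338) or either Smad4-on SB505124 library (adjusted p = 0.0137 and 0.0138). *Smad4* under TGFβ1 gave 1.26 in KCS-B73 and −0.15 in KCS-B87 (fitted 0.45 ± 0.53, adjusted p = 0.658).

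*Itga3* (chr11:95044474-95076801) and *Itga6* (chr2:71745616-71858416), the α chains of the laminin receptors, were the 2 members that TGFβ1 lowered in Smad4-on cells, both by less than 2-fold. *Itga3* was at 816 and 650 CPM in Smad4-on cells under SB505124 (KCS-B73 and KCS-B87) and at 670 and 464 CPM under TGFβ1. It fell 1.31-fold (−0.39 ± 0.08, adjusted p = 0.0135). The fall no longer passed without the Smad4-on SB505124 or the Smad4-on TGFβ1 library of KCS-B87 (−0.32 in either fit). *Itga6* was at 339 and 377 CPM in Smad4-on cells under SB505124, the 2 highest levels of the 8 libraries, and at 261 and 282 CPM under TGFβ1. The fall was 1.32-fold (−0.40 ± 0.10, adjusted p = 0.0196) and was lost without any of the 4 Smad4-on libraries (adjusted p = 0.0526–0.137). Of the 8 epithelial markers, 3 passed in the same comparison, 1 higher and 2 lower, against 33.2% of all genes (15.6% higher and 17.6% lower). *Cdh1* (E-cadherin) and *Krt19* (keratin 19) fell by 2.31 (SE 0.46, adjusted p = 0.00936) and 2.33 (SE 0.22, adjusted p = 0.000454), whereas *Cldn4* (claudin-4) rose from 0 counts in both libraries to 906 and 64 counts. The summed level went from 6200 and 1650 CPM to 5780 and 1170 CPM, and the part of these markers in the integrin values was not tested.

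*Itga6* was also the only member that passed with *Smad4* under SB505124. In the Smad4-off libraries it was at 230 and 240 CPM, so the rise was 1.52-fold (0.60 ± 0.10, adjusted p = 0.0378), by 0.56 in KCS-B73 and 0.65 in KCS-B87. The rise no longer passed when any 1 of the 4 SB505124 libraries was left out (0.54–0.67), or the Smad4-on TGFβ1 library of KCS-B73 (0.60). Under TGFβ1 the same contrast gave 0.20 ± 0.10 (adjusted p = 0.263), and the difference between the responses to *Smad4*, −0.40 ± 0.14, did not pass (adjusted p = 0.351). Of the 75-base stretches of *Itga6*, 4.46% occur in other annotated genes.

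*Itgb4* (chr11:115974709-116008412), the β chain of the hemidesmosomal laminin receptor α6β4, was the only member called between the lines. In KCS-B73 it was at 105 and 298 CPM under SB505124 and at 72.1 and 285 CPM under TGFβ1, with Smad4 off and on. In KCS-B87 the same conditions gave 36.5, 50.2, 25.3 and 33.1 CPM, all below every KCS-B73 library. *Itgb4* was 4.55-fold lower in KCS-B87 (−2.19 ± 0.28, adjusted p = 0.00240). *Smad4* on against off gave 1.27 ± 0.39 under TGFβ1 (adjusted p = 0.104) and 0.98 ± 0.38 under SB505124 (adjusted p = 0.339), neither of which passed. By line these were 1.98 and 1.51 in KCS-B73 against 0.39 and 0.46 in KCS-B87, and the former contrast passed without the Smad4-on TGFβ1 library of KCS-B87 (adjusted p = 0.0414). The response to *Smad4* averaged over both treatments differed between the lines by −1.31 ± 0.18 (KCS-B87 minus KCS-B73, adjusted p = 0.0489), the only member of 10 to pass in a comparison where 0.406% of all genes did (0.203% lower). This call was lost without either Smad4-off SB505124 library (adjusted p = 0.0519 and 0.0570). The summed epithelial markers were at 6200 and 5780 CPM in Smad4-on and 4000 and 3900 CPM in Smad4-off cells of KCS-B73. In KCS-B87 they were at 1650 and 1170 CPM against 2080 and 1270 CPM. The sum was thus higher with *Smad4* in KCS-B73, as *Itgb4* was, but lower in KCS-B87, where *Itgb4* was higher. The part of these markers in the line difference was not tested. An antisense RNA, *B230344G16Rik*, overlaps 7.66% of the *Itgb4* exon bases and had at most 12 counts.

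**Figure D3:**
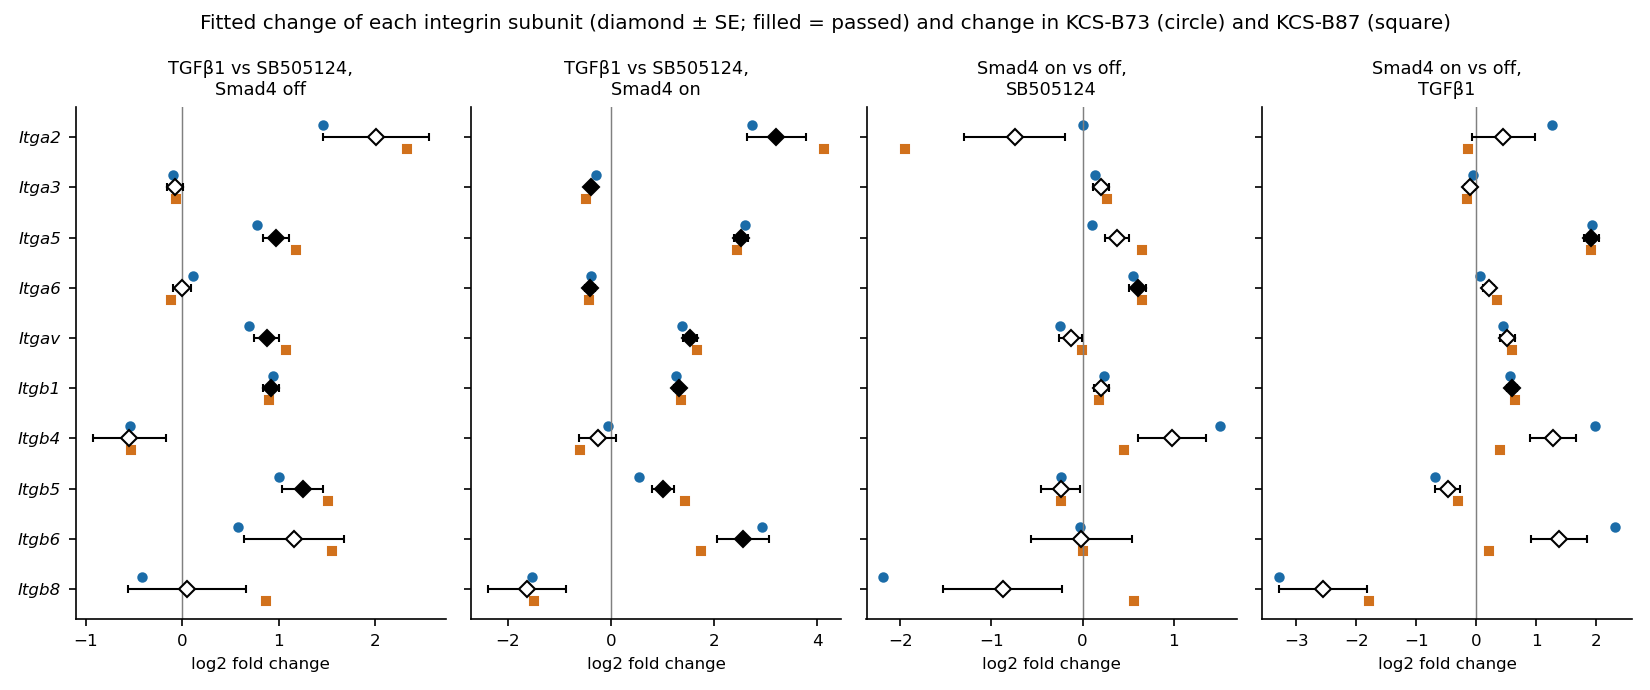
Log2 fold change of each integrin gene with TGFβ1 against SB505124 in Smad4-off and Smad4-on cells and with Smad4 on against off under SB505124 and TGFβ1, as the fitted value ± SE (diamonds, filled where the adjusted p was below 0.05) and as the change in KCS-B73 (circles) and KCS-B87 (squares). *Itga5* changed by 1.93 and 1.91 with *Smad4* under TGFβ1 in the 2 lines, whereas *Itgb4* and *Itgb6* changed by 1.98 and 2.31 in KCS-B73 and by 0.39 and 0.21 in KCS-B87.

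Whether the response to TGFβ1 depended on *Smad4* was tested directly as an interaction. *Itga5* was the only member that passed, beside 0.196% of all genes (28 genes, 0.0559% higher). Its TGFβ1 response was 1.54 ± 0.18 larger on the log2 scale with Smad4 on than with Smad4 off, or 2.91-fold (adjusted p = 0.0461), with 1.83 in KCS-B73 and 1.26 in KCS-B87. The interaction estimates of *Itgav* (0.65 ± 0.18, adjusted p = 0.277) and *Itgb1* (0.39 ± 0.11, adjusted p = 0.293) had the same sign in both lines but did not pass. Those of *Itga2* (1.19 ± 0.75), *Itgb6* (1.40 ± 0.73) and *Itgb8* (−1.68 ± 0.98) had wide errors. The *Itga5* call held without the Smad4-off SB505124 library of KCS-B87 (adjusted p = 0.0226) and was lost without any other of the 8 libraries (adjusted p = 0.0735–0.206), while the estimate stayed between 1.31 and 1.76. DESeq2 gave *Itga5* an adjusted p of 3.98e-10 with the line and 0.0108 without it, and with the line it also passed *Itgb1* (adjusted p = 0.0199).

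**Figure D4:**
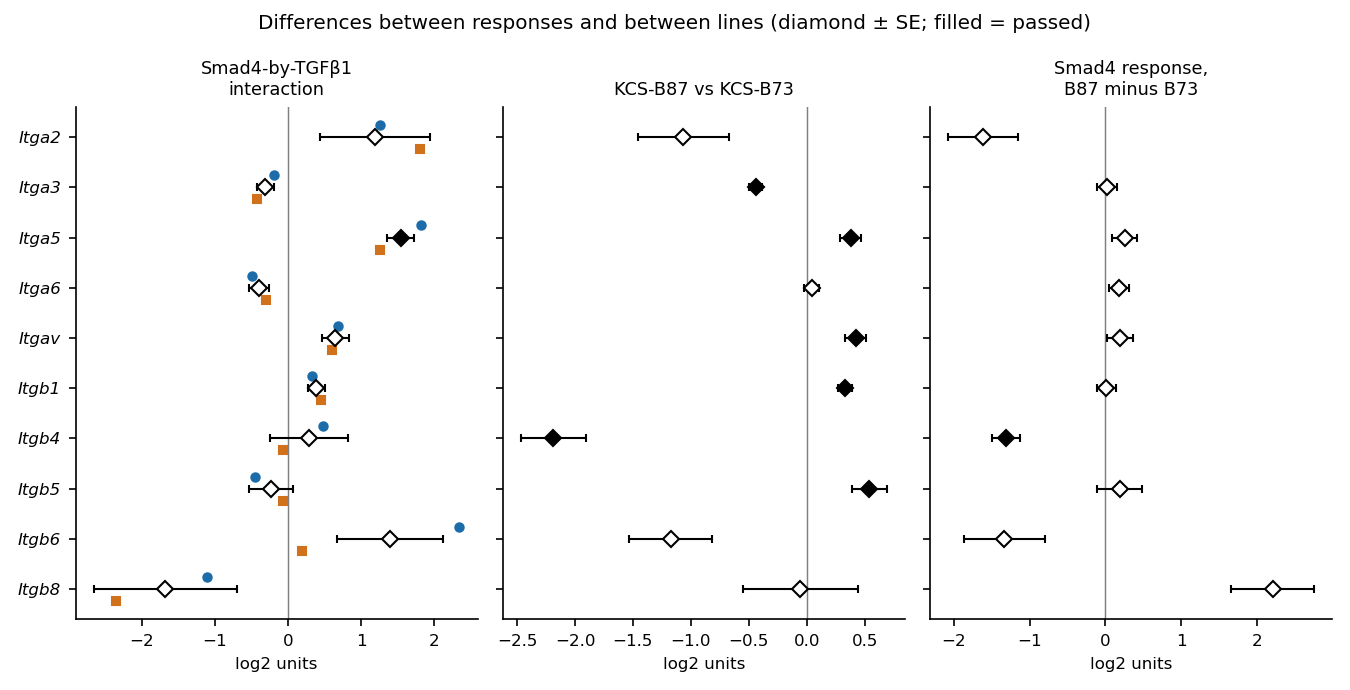
Estimates ± SE (diamonds, filled where the adjusted p was below 0.05) of the Smad4-by-TGFβ1 interaction, of the level in KCS-B87 against KCS-B73, and of the response to *Smad4* in KCS-B87 minus that in KCS-B73, on the log2 scale; circles and squares in the left panel are KCS-B73 and KCS-B87. *Itga5* had an interaction of 1.54 ± 0.18, and *Itgb4* was lower in KCS-B87 by −2.19 ± 0.28 and responded to *Smad4* less there by −1.31 ± 0.18.

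Between the lines, averaged over the 4 conditions, 6 of 10 members passed, against 18.6% of all genes (8.92% higher and 9.68% lower in KCS-B87). *Itga5* (0.38 ± 0.09), *Itgb1* (0.33 ± 0.06), *Itgav* (0.42 ± 0.09) and *Itgb5* (0.54 ± 0.15) were higher in KCS-B87, each by less than 2-fold. *Itga3* was 1.36-fold lower (−0.44 ± 0.06, adjusted p = 0.00321), and *Itgb4* was the only called member, against 8.37% of all genes (3.87% higher and 4.5% lower). *Itga5*, *Itgav* and *Itgb5* no longer passed when any 1 of 6 libraries was left out, all but the pair of Smad4-off SB505124 libraries (values of 0.32–0.66). *Itgb6* (−1.18, adjusted p = 0.0662) and *Itga2* (−1.07, adjusted p = 0.114) did not pass, but did without either Smad4-off TGFβ1 library (adjusted p = 0.0253 and 0.0254 for *Itgb6*, 0.0382 and 0.0386 for *Itga2*). The difference between the lines in the TGFβ1 response passed for none of the 14301 genes by edgeR (1198 had an unadjusted p under 0.05, and DESeq2 passed 54), and 2 members, *Itgb5* and *Itgav*, had an unadjusted p under 0.05. The line stands for all that separates these cultures, so tumor, hairpin and passage cannot be told apart.

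Across the 8 libraries, log2 CPM of *Itgav* and *Itgb1* correlated with Pearson's r = 0.969, *Itga5* and *Itgb1* with 0.948 and *Itga5* and *Itgav* with 0.905, which are descriptions over libraries that share the same 4 treatments. *Itga2* and *Itgb6* were at 0.874, and *Itga3* and *Itgb4* at 0.813. *Itga3* ran against *Itgav* at −0.716 and against *Itgb5* at −0.713. Among 11099 genes of sufficient level, the patterns most like that of *Itga5* were those of *Dusp10* (r = 0.993) and *Sh3yl1* (0.988), and for *Itgb1* those of *Fbxo46* (0.995) and *Spsb1* (0.993). *Itgav* was most like *Pfkl* (0.998) and *Ankrd37* (0.991). The nearest patterns were *Fgd6* (0.989) and *Tbc1d7* (0.984) for *Itga2*, *Higd2a* (0.969) and *Zfp715* (0.968) for *Itgb5*, and *Rab33b* (0.982) and *Lins1* (0.979) for *Itgb6*.

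Of 17 other integrin subunits, 9 had enough counts to test. With *Smad4* under TGFβ1 3 fell and none rose, against 3.28% lower and 3.52% higher of all genes. *Itgb2*, a leukocyte integrin β chain, had 508 and 173 counts in Smad4-off and 42 and 13 counts in Smad4-on cells under TGFβ1. The change was −3.47 ± 0.23 (adjusted p = 0.00116). Under SB505124 it was −2.64 ± 0.22 (adjusted p = 0.00358), and the interaction did not pass (adjusted p = 0.413). Of 7 leukocyte markers, 5 including *Ptprc* had at most 3 counts in every library. *Cd68*, the only marker of this list with enough counts to test, was at a mean of 2.55 CPM with Smad4 off and 1.33 CPM with Smad4 on under TGFβ1. This change (−0.93) did not pass, and the part of *Cd68* in the *Itgb2* values was not tested. *Itga1*, the α chain of the collagen receptor α1β1, fell by 1.24 with *Smad4* under TGFβ1 (adjusted p = 0.0152) and by 2.49 with TGFβ1 in Smad4-on cells (adjusted p = 0.000258), where *Itga2* rose. Its call with *Smad4* was lost without either KCS-B87 TGFβ1 library (adjusted p = 0.0656 without Smad4 off and 0.0740 without Smad4 on). *Itgb7* had 319 and 38 counts in KCS-B73 without and with *Smad4* under TGFβ1 but 2 counts in either state of KCS-B87, and its call was lost without either of those KCS-B73 libraries (adjusted p = 0.668 and 0.761). *Itgb3*, a further β partner of αv, rose 2.15 ± 0.38 with TGFβ1 in Smad4-on cells (adjusted p = 0.00582), from 4.22 and 9.82 CPM to 33.1 and 25.4 CPM, with a value of 1.55 without the Smad4-on TGFβ1 library of KCS-B73.

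Ligands of these receptors moved in both directions. A list of 13 laminin, collagen IV, nephronectin and fibrillar collagen I genes had 12 members tested, of which 2 rose and 3 fell with *Smad4* under TGFβ1, against 3.52% and 3.28% of all genes. *Lamb3*, the β3 chain of laminin-332, rose 1.98 ± 0.17 (adjusted p = 0.00187), from 71.6 to 341 CPM in KCS-B73 and from 14.5 to 45.9 CPM in KCS-B87. *Col1a1*, whose locus carries the hairpin cassette, rose 1.78 ± 0.21 (adjusted p = 0.00656) and was at 0.349–5.10 CPM in KCS-B73 against 25.9–627 CPM in KCS-B87. Without the Smad4-off TGFβ1 library of KCS-B87 the value was 1.17 and did not pass (adjusted p = 0.124), and it did not pass without the Smad4-on one (0.0901). Under SB505124 *Lamb3* also rose with *Smad4*, by 2.52 ± 0.20 (adjusted p = 0.00358), and so did *Col1a1*, by 2.08 ± 0.25 (adjusted p = 0.0136). Neither passed the interaction (adjusted p = 0.545 and 0.812). With TGFβ1 in Smad4-on cells 5 of these 12 rose and 4 fell, against 15.6% and 17.6% of all genes. Those that rose included *Lamb3* (2.57 ± 0.17) and *Lamb1* (1.48 ± 0.19).

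A further list held 14 genes of integrin ligands, of TGFβs and of proteins that bind latent TGFβ, and 13 of them were tested. With TGFβ1 7 rose and 1 fell in Smad4-on cells (15.6% and 17.6% of all genes) and 8 rose in Smad4-off cells (6.96% of all genes). *Tnc* (tenascin-C) rose 4.63 ± 0.28 in Smad4-on cells, from 2.70 and 10.1 CPM to 75.3 and 216 CPM, and *Thbs1* (thrombospondin-1) rose 4.45 ± 0.43, from 190 and 136 CPM to 2594 and 4517 CPM. *Cyr61* rose 2.68 ± 0.19. *Tgfbi*, at 27 and 183 counts under SB505124, had 1 and 7 counts under TGFβ1 (adjusted p = 0.0386). That call was lost without the Smad4-on TGFβ1 library of KCS-B73 (adjusted p = 0.160) or KCS-B87 (0.0960) or the Smad4-on SB505124 library of KCS-B87 (0.221), and the fitted value ranged from −6.55 to −2.17 over the left-out libraries. *Fn1*, the gene of fibronectin itself, falls outside the rule for named genes and was picked after its values were seen. It was at 1141–2388 CPM under SB505124 and at 4731–8559 CPM under TGFβ1, and rose 2.18 ± 0.32 in Smad4-on (adjusted p = 0.00288) and 1.99 ± 0.32 in Smad4-off cells (adjusted p = 0.00960). With *Smad4* under TGFβ1 2 of these 13 rose and 1 fell, against 3.52% and 3.28% of all genes. *Tnc* rose 2.32 ± 0.24, whereas *Spp1* (osteopontin), a ligand of αv and of other integrins, fell by 3.01 (SE 0.30, adjusted p = 0.00369), from 2750 and 1536 CPM to 235 and 267 CPM.

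The 22 genes of a list of integrin activators and adaptors were all tested. With TGFβ1 in Smad4-on cells 16 rose and 2 fell (15.6% and 17.6% of all genes), with a median of 0.70, and in Smad4-off cells 7 rose (6.96% of all genes), with a median of 0.32. *Smad4* under TGFβ1 raised 5 and lowered 1, against 3.52% and 3.28% of all genes. *Fermt2* (kindlin-2), which binds β tails and activates integrins, was at 135 and 184 CPM with Smad4 off and at 280 and 356 CPM with Smad4 on under TGFβ1 (1.00 ± 0.08, adjusted p = 0.00140). It was the only gene of the list that passed the interaction (1.01 ± 0.11, adjusted p = 0.0380). *Zyx* (zyxin), a focal adhesion protein, rose 1.07 ± 0.15 with *Smad4* (adjusted p = 0.0107) and 1.80 ± 0.15 with TGFβ1 in Smad4-on cells. The former call was lost without either Smad4-off TGFβ1 library (adjusted p = 0.0897 and 0.0746) or the Smad4-on TGFβ1 library of KCS-B73 (0.0532). With TGFβ1 in Smad4-on cells *Fermt1* (kindlin-1) passed at 2.06 ± 0.60 (adjusted p = 0.0368) and *Tns1* (tensin-1) at 2.2 ± 0.68 (adjusted p = 0.0446). *Fermt1* was lost without the Smad4-on TGFβ1 library of either line (adjusted p = 0.141 and 0.0859) or the Smad4-on SB505124 library of KCS-B87 (1.44, adjusted p = 0.171), and was 3.18 without that of KCS-B73. *Tns1* was lost without 5 of the 8 libraries (adjusted p = 0.0623–0.354), with values from 1.19 without the Smad4-on TGFβ1 library of KCS-B87 to 3.42 without its Smad4-on SB505124 library. Of 7 hemidesmosome and tetraspanin genes, 1 rose and 1 fell with *Smad4* under TGFβ1, against 3.52% and 3.28% of all genes. *Col17a1*, the collagen XVII of hemidesmosomes, had 0 and 3 counts in Smad4-on cells under SB505124 and 17 and 25 under TGFβ1 (adjusted p = 0.00956).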

How the data were processed

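RNA from 8 samples was made into stranded poly(A) libraries and sequenced as 75-base single reads. Per the labels and the study's methods, the authors used FastQC 0.11.5, Trimmomatic 0.36, STAR 2.5.3a on GRCm38 (mm10) and featureCounts 1.6.3 to obtain the deposited counts per gene, which are raw and not normalized. Strand and multi-mapping settings are not given in the sources used here, so antisense and duplicated sequence could change a count.

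Groups and lines were taken from the sample titles. Genes were kept by filterByExpr, scaled by TMM and tested with edgeR 4.0.16 (R 4.3.3) by the quasi-likelihood F test in a model with 4 groups and the line over all 8 libraries. P-values were adjusted by Benjamini-Hochberg over the 14301 genes tested, and each SE was derived from the log2 fold change and its F statistic (the ratio of the former to the root of the latter). The study's methods name DESeq2 without a covariate, and DESeq2 1.42.0 was run with and without the line. The line of origin, given in the titles, pairs the libraries: deviations of the same line from the group means correlated at 0.642–0.774 over the 6 pairs of groups. Scripts were tested on simulated data. Fitted fold changes use edgeR's default prior, the log2 CPM behind correlations and changes within a line use a prior count of 2, and CPM carry counting error (18389235–23440550 counts per library).

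The members and lists were chosen with earlier results of these data known. Named genes are the 10 members, *Smad4*, up to 4 called genes per list by size of change with *Smad4* under TGFβ1 or with TGFβ1 in Smad4-on cells, any list gene that passed the interaction, and for each called member the 2 genes with the highest Pearson's r among genes with a mean log2 CPM of at least 1. Exon lengths and positions are from GENCODE on GRCm38, and promoters from RefSeq. An allele of the model and a gene that the rule names are not reported here. The alternatives were no line term, DESeq2, DESeq2 size factors, other filters on low counts, a test against 2-fold (glmTreat), a fit of the compared libraries alone, and leave-one-out fits over the libraries.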

Additional observations from a re-analysis of the deposited data

Results flagged for a closer look

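The TGFβ1 response of *Itga5* differed between Smad4-on and Smad4-off cells by 1.54 ± 0.18 on the log2 scale, by a test of that difference itself. That of *Fermt2*, which encodes kindlin-2, differed by 1.01 ± 0.11 in the same test, with 1.10 in KCS-B73 and 0.91 in KCS-B87, and its call was lost without any 1 of the 8 libraries (adjusted p = 0.0657–0.200). The response of *Itgb4* to *Smad4* differed between the lines by −1.31 ± 0.18 (KCS-B87 minus KCS-B73). No group held 4 or more samples, so single samples were not tested for standing apart.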

How the results depend on the processing

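Counts of members that passed are given in the order *Smad4* under TGFβ1, *Smad4* under SB505124, TGFβ1 with Smad4 on, TGFβ1 with Smad4 off, and the interaction (2, 1, 8, 4 and 1 as reported). Without the replicate block, which here is the line, edgeR passed 0, 0, 4, 0 and 0 (unadjusted p under 0.05 in 3, 1, 4 and 2 members where none passed) and 43, 2, 2180, 270 and 0 of all genes, where 973, 228, 4751, 1888 and 28 passed with it. DESeq2 without the block passed 2, 1, 7, 4 and 1 members, and 666, 180, 3176, 1155 and 68 of all genes. With the line it passed 4, 1, 8, 4 and 2 members, and 1488, 489, 4399, 2112 and 267 of all genes. With no filter on low counts the counts were 7, 2, 9, 5 and 2, and 1 for the line by TGFβ1 response and 4 for the line by *Smad4* response, where 0 and 1 were reported. Of all genes 1887, 792, 5058, 2655 and 440 then passed. For the line by TGFβ1 and the line by *Smad4* response 156 and 719 of all genes passed, where 0 and 58 were reported. With at least 10 counts in every library 0 passed for the line by *Smad4* response (3 unadjusted), beside 31 of all genes. The test against 2-fold passed 1, 0, 4, 0 and 0, and 1 of the 6 between the lines (unadjusted p under 0.05 in 0, 2 and 1 members where none passed). Of all genes it passed 79, 37, 882, 204 and 3, and 570 between the lines. Fits of only the libraries compared passed 4, 0, 9 and 6 (3 unadjusted for *Smad4* under SB505124), and 1345, 75, 4675 and 2674 of all genes. Size factors from DESeq2 changed only the count between the lines, to 5. Leaving out 1 library gave 1 to 4, 0 to 1, 5 to 8, 2 to 5 and 0 to 1 members, 3 to 6 between the lines and 0 to 2 for the line by *Smad4* response, an alternative added after the data were seen. That response passed for *Itga2* without either Smad4-on TGFβ1 library (−2.41) and for *Itgb8* without the Smad4-off TGFβ1 library of KCS-B87 (2.88).

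Reversals touched values that had not passed. For TGFβ1 in Smad4-off cells, *Itga6* (−0.00) was 0.0097 with DESeq2 and the line, 0.0082 with DESeq2 alone, 0.0097 with DESeq2 size factors, 0.014 with no filter and 0.0099 in the fit of 4 libraries. *Itgb8* between the lines was 0.12 with DESeq2. With 1 library or 1 line left out, values ranged for *Smad4* under SB505124 from −2.02 to 0.062 (*Itga2*), −0.31 to 0.070 (*Itgav*), −0.49 to 0.0076 (*Itgb5*), −0.053 to 0.045 (*Itgb6*) and −2.19 to 0.56 (*Itgb8*), and under TGFβ1 from −0.26 to 1.38 (*Itga2*). They ranged for TGFβ1 from −0.99 to 0.23 (*Itgb4*) in Smad4-on cells and from −0.14 to 0.15 (*Itga6*) and −0.79 to 1.39 (*Itgb8*) in Smad4-off cells. The interaction ranged from −0.45 to 0.77 (*Itgb4*) and −0.62 to 0.084 (*Itgb5*), and the line difference from −0.49 to 0.58 (*Itgb8*). The line by *Smad4* response ranged from −0.060 to 0.13 (*Itga3*), −0.024 to 0.075 (*Itgb1*), −0.26 to 0.64 (*Itgb5*) and −0.044 to 0.18 (*Smad4*). The cause of these changes was not tested. *Itgb6* and *Itgb8*, at 8 to 237 counts, carry the largest counting error. Of the order of levels per kilobase, 7 of 10 ranks were unchanged with the longest transcript.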
